A study of Mus musculus with 6 samples.

Results

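Actins are the proteins of the thin filament and of the cell's cytoskeleton. They are made from a small family of genes whose proteins have nearly the same sequence. The genes described here are the muscle actin genes Acta1 (skeletal muscle), Actc1 (cardiac muscle) and Acta2 (smooth muscle) and the cytoplasmic actin genes Actb (beta) and Actg1 (gamma). They were chosen by name, 5 rows of the 49585 gene rows of a table of ribosome-protected fragments from mouse heart, and all 5 passed the filter on low counts, which 9124 genes passed. Such fragments are the pieces of mRNA left when nuclease has digested what no ribosome covers, so their counts follow mRNA level and translation together. No matched RNA-seq was used here.

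Hearts came from male mice aged 8 or 9 weeks, in 2 groups of 3 libraries. The partial-gravity group (PG) was kept at 0.167 g, lunar gravity, by turning the habitat cage at 31 rpm on a radius of 15 cm in orbit, and the ground control group (GC) lived at 1 g in conditions like those aboard the station. The labels give C57BL/6 J for the ground mice and no strain for the lunar mice. The PG mice flew and the GC mice did not, so flight and gravity cannot be told apart. Nothing in the labels ties a library to a mission or to an animal of its own, and p-values therefore cover only the spread among these samples, which may be technical. In whole hearts, fewer cells of a type and less RNA per cell cannot be told apart.

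In the adult mouse heart Actc1 is the main sarcomeric actin. Acta1 is made in the developing rodent heart, declines after birth and is known to return when the ventricle is overloaded. Acta2 marks the smooth muscle of vessels and activated fibroblasts, while beta and gamma actin form the cytoskeleton of every cell type. Serum response factor (SRF), with its partners myocardin and the myocardin-related factors, drives actin genes through a short element called the CArG box.

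Every library held 2212473 to 3196070 exon reads, of which the rows Lars2 and Tmem38b took 45.5% to 52.5%. PG replicate 3 stood apart: chi-square per degree of freedom against the other PG libraries was 24.2 and 14.8, against 4.16 to 5.15 for all other pairs within a group. All 10 cardiomyocyte markers had enough reads to be tested, with summed levels of 37496 to 42453 CPM in PG and 41246 to 44787 CPM in GC. CPM here means total exon reads scaled to the library's size after TMM, edgeR's correction for unequal library composition.

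The muscle actins fell in PG and the cytoplasmic actins did not pass the test. All 5 log2 fold changes were negative, with a median of -0.64 against 0.00 (-0.0017 before rounding) for all genes tested. By the quasi-likelihood test of edgeR, adjusted by Benjamini-Hochberg over all genes, 3 of the 5 passed an adjusted p of 0.05, all lower in PG. Calls lower in PG made up 0.329% of all genes tested, and 50.2% of all genes had a negative log2 fold change. Every PG library lay below every GC library for 4 of the 5 actins, all but Actb, which was so for 8.25% of all genes tested.

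Promoter sequences are shown because SRF is known to act on this family through short elements there. RefSeq's table for GRCm38.p6 matched 4 of the 5 genes, all but Actb, and these 4 lie on the minus strand. The 250 bases before each RefSeq start are used. A CArG box is a fixed pattern of 10 bases that reads the same way on both strands, and a CArG-like site here has 1 C or G among its middle A and T bases. The letters CATTCCT, the element bound by TEAD factors, were searched on both strands. Capitals mark every match, and no matches overlapped. The windows of Acta1 (chr8:123894776-123895025) and Actc1 (chr2:114052876-114053125) are given whole.
Acta1: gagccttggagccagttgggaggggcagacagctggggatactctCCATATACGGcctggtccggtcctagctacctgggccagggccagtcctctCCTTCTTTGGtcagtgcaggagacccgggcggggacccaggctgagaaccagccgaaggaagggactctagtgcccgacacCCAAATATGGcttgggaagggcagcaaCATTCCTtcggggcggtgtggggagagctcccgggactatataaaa
Actc1: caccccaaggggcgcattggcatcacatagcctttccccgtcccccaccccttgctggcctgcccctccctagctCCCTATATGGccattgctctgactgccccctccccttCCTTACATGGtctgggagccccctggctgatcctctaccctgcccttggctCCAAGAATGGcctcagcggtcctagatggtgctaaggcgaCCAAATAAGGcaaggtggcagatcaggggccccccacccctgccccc
Shorter stretches of Acta2 (chr19:34255433-34255472) and Actg1 (chr11:120348561-120348600) show 1 site each in capitals.
Acta2: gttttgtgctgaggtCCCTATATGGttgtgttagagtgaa
Actg1: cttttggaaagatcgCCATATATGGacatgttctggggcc
Acta1 held the CArG box CCAAATATGG, starting 73 bases before the RefSeq start, and CATTCCT at 46 bases before it. Actc1 held the CArG box CCAAATAAGG at 47 bases before the start. Actg1, whose change did not pass the test, held the CArG box CCATATATGG at 90 bases. The whole Actc1 window lies within the Actc1 row of the counts, which runs to position 114053548. The annotation behind the counts thus starts Actc1 further upstream than RefSeq does. The Actg1 window overlaps the Actg1 row in part, up to position 120348542, and the Actg1 CArG box lies outside that row. Acta2 had no CArG box in this window, a CArG-like CCCTATATGG at 84 bases, a further CArG-like site at 34 bases and CATTCCT on the other strand at 147 bases. Acta1 had 2 CArG-like sites and Actc1 had 3, 1 of them also CCCTATATGG. Among all 32851 promoters of this length in the table, 1.47% held a CArG box, 7.25% a CArG-like site and 4.51% CATTCCT. A match is a description of the letters and not of binding.

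Acta1, on chromosome 8 (positions 123891769 to 123894751, GRCm38, with 8 annotated exons), fell the most of the 5. It stood at 122, 93.9 and 179 CPM in PG replicates 1, 2 and 3, against 371, 334 and 305 CPM in GC replicates 1, 2 and 3. The highest PG library, replicate 3, lay well below the lowest GC library, so the groups did not overlap. The mean was 132 ± 43.5 CPM in PG and 337 ± 32.8 in GC (SD, n = 3 each), which was 2.57-fold lower in PG (log2 fold change -1.36 ± 0.17, SE, edgeR adjusted p 4.87e-05). Acta1 ranked 6 by p among the 9124 genes. It passed under every alternative setting run. Without PG replicate 3, the PG library with most Acta1, the log2 fold change was -1.64.

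Actc1, on chromosome 2 (positions 114047282 to 114053548), is the most abundant actin of this tissue and also fell. Its libraries held 5385, 7258 and 8175 CPM in PG, against 12797, 12029 and 10526 CPM in GC. The groups again lay apart. Its log2 fold change was -0.76 ± 0.13 (SE) with an adjusted p of 0.00477 (edgeR). Without PG replicate 3 the log2 fold change was -0.90, and without GC replicate 2 it was -0.75 and the adjusted p, 0.0812, missed the threshold. On total gene reads, which include introns, it was -0.74 with an adjusted p of 0.143 (edgeR), which also missed it.

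Acta2, on chromosome 19 (positions 34241090 to 34255336), fell by an amount close to that of Actc1. It stood at 104, 104 and 135 CPM in PG replicates 1, 2 and 3, against 189, 168 and 177 CPM in GC. The mean of 114 ± 17.6 CPM in PG and 178 ± 10.4 in GC (SD, n = 3 each) made it 1.56-fold lower in PG (log2 fold change -0.64 ± 0.14, SE, edgeR adjusted p 0.0321). Of its reads 99.3% fitted a single place. The call rested on single libraries: the adjusted p (edgeR) was 0.101 without GC replicate 1, 0.109 without GC replicate 2, 0.173 without PG replicate 1 and 0.248 without PG replicate 2, while the log2 fold change stayed between -0.77 and -0.58. It was also 0.0945 with library size alone as the scaling and 0.0768 on gene reads. DESeq2, which called 0.8% of all genes lower in PG, gave an adjusted p of 0.00239.

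Actb, on chromosome 5 (positions 142903115 to 142906754), had 359, 429 and 485 CPM in PG, against 477, 577 and 418 CPM in GC. The groups overlapped, with PG replicate 3 above GC replicates 1 and 3. Its log2 fold change was -0.21 ± 0.14 (SE) with an adjusted p of 0.640 (edgeR), and it was -0.11 without PG replicate 1 and -0.08 without GC replicate 2. Actg1, on chromosome 11 (positions 120345690 to 120348542), had 56.9, 73.2 and 85.5 CPM in PG, against 95.9, 98.4 and 87.3 CPM in GC. The highest PG value lay just under the lowest GC value, and the log2 fold change of -0.39 ± 0.16 (SE) had an unadjusted p of 0.0246 and an adjusted p of 0.395 (edgeR). Without PG replicate 1 its log2 fold change was -0.25. On RPKM its groups overlapped. Actg2, the enteric smooth muscle actin, is not among the 5 and had 12, 9 and 2 reads in PG and 9, 4 and 12 in GC, too few to be tested.

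**Figure D1:**
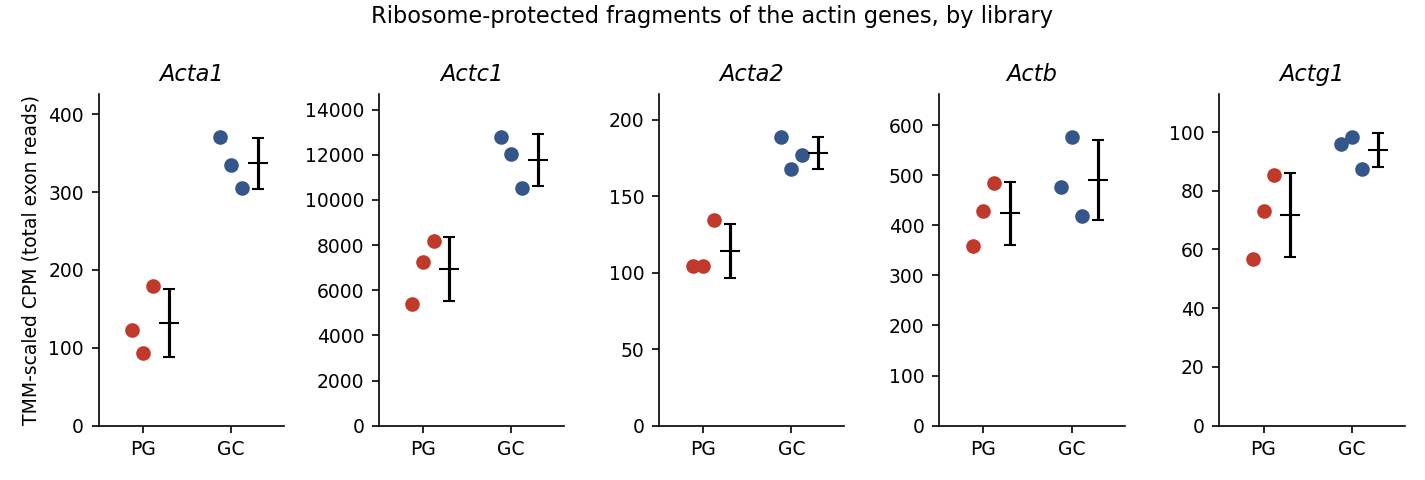
Level of each actin gene in TMM-scaled CPM of total exon reads (vertical axes start at 0), with a point for each library of PG and GC and the mean ± SD beside the points (n = 3). Acta1, Actc1, Acta2 and Actg1 have every PG point below every GC point, while the Actb points overlap.

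Per length of exon, Actc1 stood far above the rest and the order of the next genes differed between groups. Levels between genes are given as the deposited RPKM, which are reads scaled to exon length and to mapped reads. Actc1 had 1321 ± 193 RPKM in PG and 1957 ± 144 in GC (SD, n = 3 each). Actb followed in PG at 48.9 ± 4.17 RPKM, then Acta1 at 26.2 ± 5.97, Acta2 at 19.8 ± 0.82 and Actg1 at 8.32 ± 1.07. In GC Acta1 came after Actc1, at 58.9 ± 3.04 RPKM, then Actb at 49.5 ± 9.96, Acta2 at 26.9 ± 0.87 and Actg1 at 9.51 ± 0.85. The neighbours Acta1 and Acta2 overlapped in PG, where Acta1 ran from 20.1 to 32.0 RPKM and Acta2 from 19.3 to 20.7. Acta1 and Actb overlapped in GC, at 55.6 to 61.6 and 43.6 to 61.0 RPKM. Within libraries, the log2 ratio of Acta1 to Actb in RPKM was -1.39 to -0.63 in PG and 0.02 to 0.44 in GC. By RPKM Acta1 thus lay below Actb in all 3 PG libraries and above it in all 3 GC libraries. The order in GC rests on the exon lengths, 1536 bases for Acta1 and 2679 for Actb. On reads the log2 ratio was -2.19 to -1.43 in PG and -0.79 to -0.36 in GC, so Acta1 lay below Actb in every library. RPKM values count shared reads too, and the rule that divided them among genes is not given in the sources used here.

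**Figure D2:**
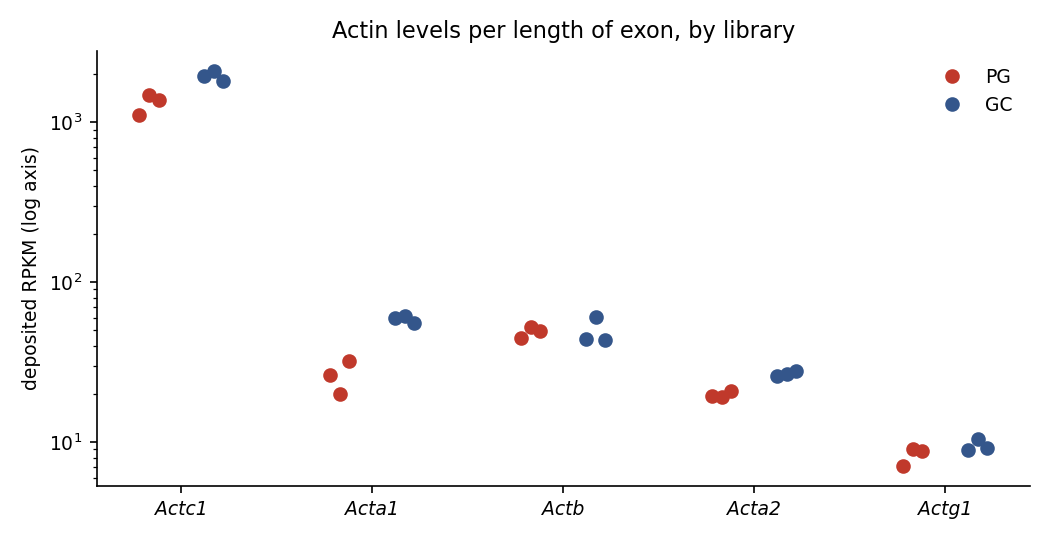
Deposited RPKM of each actin gene on a log axis, with a point for each library (PG left of GC). Actc1 lies between 1104 and 2106 RPKM in all 6 libraries, and Acta1 lies below Actb in PG and level with or above it in GC.

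Together the 5 actins took a smaller part of the ribosome-protected fragments in PG. Their summed reads were 0.661%, 0.852% and 0.798% of exon reads in PG replicates 1, 2 and 3, against 1.31%, 1.29% and 1.16% in GC. With Lars2 and Tmem38b left out, the range was 1.23% to 1.68% in PG and 2.23% to 2.62% in GC. The sum of the 5 in CPM was 7682 ± 1535 in PG and 12883 ± 1240 in GC (SD, n = 3 each), and most of it was Actc1.

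Within the family, beta and gamma actin made up more of the reads in PG. Actc1 held 90.3 ± 0.93% of the reads of the 5 actins in PG and 91.5 ± 0.39% in GC (SD, n = 3 each), and its groups overlapped. Actb held 5.96%, 5.40% and 5.35% in PG, against 3.43%, 4.37% and 3.63% in GC. Actg1 held 0.94%, 0.92% and 0.94% in PG, against 0.69%, 0.74% and 0.76% in GC. Neither gene's groups overlapped, with PG on the higher side, although neither rose in CPM. On unique reads the PG minus GC difference for Actg1 was 0.0396 percentage points against 0.205 on all reads, and on the expression values it was -0.0301. Acta1 held 2.03%, 1.18% and 1.98% in PG, against 2.66%, 2.53% and 2.65% in GC. Acta2 held 1.51 ± 0.21% in PG and 1.39 ± 0.14% in GC and its groups overlapped. On unique reads the difference for Acta2 was -0.44 percentage points, against 0.12 on all reads. Shares of 1 family add up to a fixed whole, so they were described and not tested.

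Acta1 was also a smaller part of the striated-muscle actins. Of the reads of Acta1 and Actc1 together, Acta1 held 2.22% in PG replicate 1 (95% Wilson interval 2.01% to 2.46%), 1.28% in PG replicate 2 (1.14% to 1.43%) and 2.15% in PG replicate 3 (1.94% to 2.37%). In GC it held 2.82% (2.63% to 3.02%), 2.70% (2.52% to 2.90%) and 2.82% (2.65% to 3.00%). No PG interval reached a GC interval, but these intervals take reads as the unit and so cover counting error within a library only. Spread between libraries is not in them. Reads are also not corrected for duplicates, so the intervals may be too narrow. The means differed by -0.898 percentage points, with an exact two-sided permutation p of 0.10, the smallest that 3 against 3 allows. Without PG replicate 2, the lowest library, the difference was -0.595 points. On unique reads the shares were 2.50%, 1.23% and 2.36% in PG, against 3.23%, 2.36% and 2.52% in GC. Those groups overlapped, and the exact permutation p was 0.20, so the difference between Acta1 and Actc1 was less clear on reads that fit a single place.

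**Figure D3:**
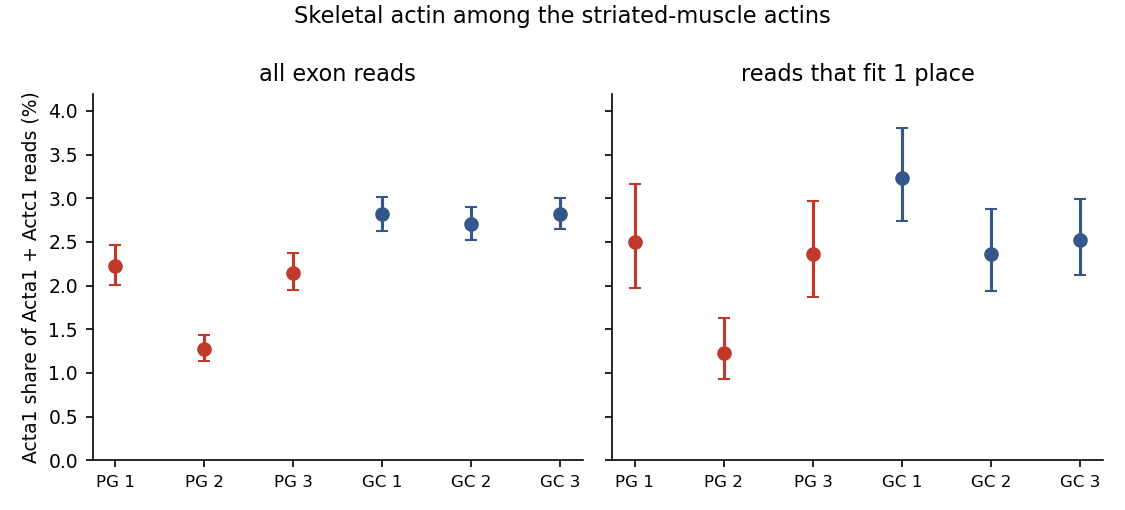
Acta1 as a percentage of Acta1 plus Actc1 reads in each library, with 95% Wilson intervals, on all exon reads (left) and on reads that fit a single place (right). On all reads the PG libraries sit at 1.28% to 2.22% and the GC libraries at 2.70% to 2.82%, and on unique reads the groups overlap.

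The same comparison was made for all 10 pairs of actins, as the log2 ratio of their reads within a library. In 7 pairs the groups did not overlap and in 3 they did. The 7 included all 4 pairs with Acta1, as well as Actc1 against Actb, Actc1 against Actg1 and Acta2 against Actb. For Acta1 over Actb the mean log2 ratio was -1.73 ± 0.41 in PG and -0.53 ± 0.22 in GC (SD, n = 3 each). For Actc1 over Acta2 it was 5.91 ± 0.21 in PG and 6.05 ± 0.14 in GC, which overlapped. Acta2 over Actg1, a muscle against a cytoplasmic actin, also overlapped, at 0.68 ± 0.18 in PG and 0.92 ± 0.13 in GC. So did Actb over Actg1, at 2.57 ± 0.08 in PG and 2.38 ± 0.16 in GC. Each of the 7 had an exact two-sided permutation p of 0.10, the smallest possible, and 0.143 after Benjamini-Hochberg adjustment over the 10 pairs. The pairs share genes, so they are not separate pieces of evidence.

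Most reads of Acta1, Actc1 and Actg1 were not counted as unique, while most reads of Acta2 and Actb were. Reads not counted as unique are called here reads that fit several places. The counts do not say whether such a place is another locus or another gene row over the same locus. Of all reads over the 6 libraries, 15.3% were unique for Acta1, 15.5% for Actc1, 99.3% for Acta2, 67.9% for Actb and 9.15% for Actg1. The median tested gene had unique reads alone, and 7.91% of tested genes had under 20% unique reads. Of the unique reads, 98.0% of those of Acta1 and 97.5% of those of Actc1 crossed an exon-exon junction, against 19.1% for Acta2 and 4.80% for Actb. Among the 6932 tested genes with at least 100 unique reads, 0.548% had 95% or more of them on junctions. Reads inside the exons of Acta1 and Actc1 were therefore almost all among those that fit several places. The gene or locus that shares them was not given in the table. Acta1 lies within the predicted row Gm20388 and Actc1 within the predicted row A530058N18Rik_1. Actg1 overlaps 2 short rows that held 0 reads, and Acta2 and Actb overlap 0 rows. Whether overlapping rows share these reads was not tested.

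On unique reads alone, Acta1 had 67, 48 and 70 reads in PG, against 135, 95 and 129 in GC. The groups did not overlap, the log2 fold change was -1.08 ± 0.24 (SE) and the adjusted p was 0.00864 (edgeR). Actc1 had 2617, 3855 and 2901 unique reads in PG, against 4045, 3924 and 4988 in GC. Its log2 fold change on them was -0.59 ± 0.12 (SE) with an adjusted p of 0.00498 (edgeR). Acta2 had 309, 327 and 287 in PG, against 387, 385 and 566 in GC, a log2 fold change of -0.64 ± 0.14 (SE) with an adjusted p of 0.00892 (edgeR). So all 3 muscle actins passed on unique reads, where 0.623% of the 8342 genes tested were called lower in PG. Actb (-0.22 ± 0.13) and Actg1 (-0.34 ± 0.45, on 118 unique reads in all) did not pass. On the reads that fit several places, Acta1 fell (log2 fold change -1.39 ± 0.20, adjusted p 0.0167, edgeR), and Actc1 had -0.77 ± 0.18 with an adjusted p of 0.151 among 1910 genes tested, of which 0.209% were called lower. Acta2 had too few such reads to be tested.

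**Figure D4:**
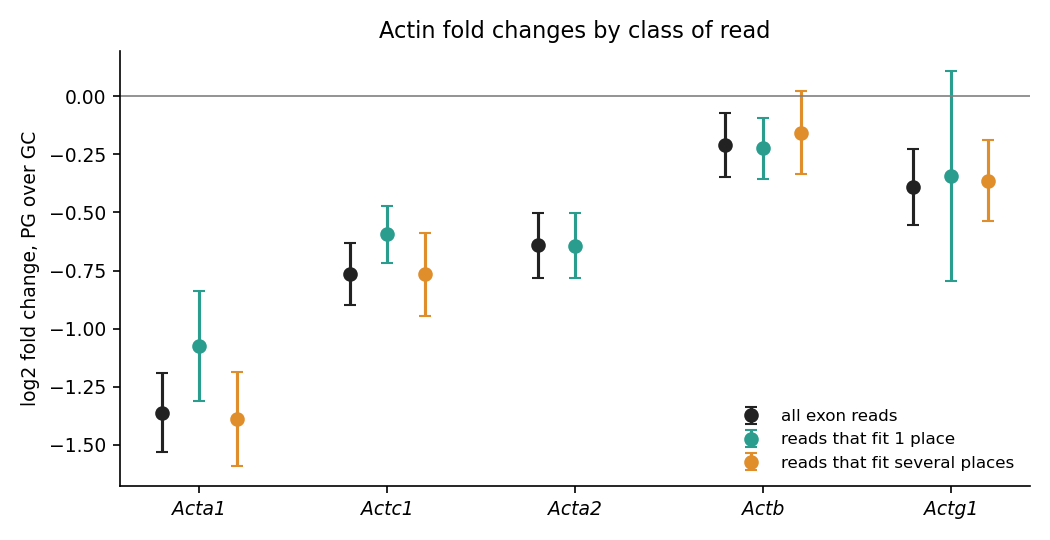
Log2 fold change of PG over GC with its standard error for each actin gene, on all exon reads, on reads that fit a single place and on reads that fit several places (edgeR). Every point lies below 0, from -1.39 for the shared reads of Acta1 to -0.16 for those of Actb, and Acta2 has no point for shared reads.

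The unique part of Actc1 reads was itself higher in PG. It was 16.2%, 16.9% and 16.7% in PG replicates 1, 2 and 3, against 15.2%, 14.2% and 14.7% in GC, with no overlap. For Acta1 it was 18.2%, 16.3% and 18.3% in PG, against 17.5%, 12.4% and 13.1% in GC, which overlapped. Over all genes the unique part of exon reads was 60.8% to 71.6% in PG and 65.6% to 67.6% in GC. Its part in the results was not tested.

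**Figure D5:**
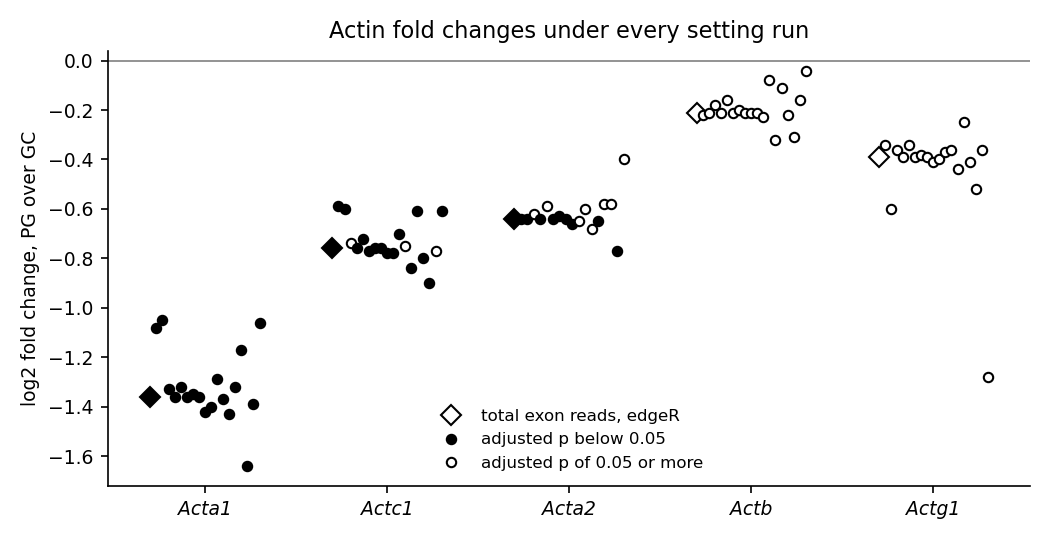
Log2 fold change of each actin gene under every setting run (other read classes, scalings, filters and tools, the replicate block and each library left out), with the test on total exon reads as a diamond and filled symbols where the adjusted p was below 0.05. Every value is below 0. Acta1 is filled throughout, Actc1 and Acta2 in part, and Actb and Actg1 nowhere.

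In the authors' deposited table, which holds a test between the groups, no actin passed a false discovery rate of 0.05. The authors' deposited table gives fold changes of -2.05 for Acta1, -1.51 for Actc1, -1.55 for Acta2, -1.15 for Actb and -1.50 for Actg1, all with a minus sign, and all 5 were lower in PG on the deposited expression values. The authors' deposited table has FDR-corrected p-values of 0.450 for Acta1, 0.794 for Actc1 and 0.185 for Acta2. The deposited expression value adds to the unique exon reads the junction reads that fit several places. On that expression value edgeR gave adjusted p-values of 0.0106, 0.00474 and 0.0100 for the same 3 genes.

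No gene of the lists for folding, modifying or regulating actin passed the test. Calls in either direction made up 0.581% of all genes tested, so most lists of this size would hold none. Of 14 tested genes of the actin folding list (the CCT chaperonin, prefoldin and the phosducin-like gene Pdcl3), none passed in edgeR (at unadjusted p under 0.05, 1 was lower and 0 were higher), with a median log2 fold change of -0.10. The most abundant, Cct8 (0.11 ± 0.16, SE) and Tcp1 (-0.15 ± 0.15), are chaperonin subunits. Of 4 tested genes for actin's N-terminal processing and modification, none passed in edgeR, and none reached an unadjusted p of 0.05 either. They include Setd3 (-0.11 ± 0.19), which methylates a histidine of actin, and Naa15 (0.11 ± 0.21), a subunit of an N-terminal acetyltransferase. Among 17 tested genes of the SRF list, none passed in edgeR (at unadjusted p under 0.05, 0 were lower and 1 was higher), with a median of 0.03. Fhl2, a LIM protein that binds SRF, had -0.04 ± 0.12, and the TEAD factor gene Tead1, whose family binds CATTCCT, 0.25 ± 0.13. Srf itself, which stands in both SRF lists, had a log2 fold change of -0.14 ± 0.16.

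Other genes known as SRF targets had a median log2 fold change of 0.00 (-0.0026 before rounding). None of the 12 tested passed in edgeR (at unadjusted p under 0.05, 1 was lower and 0 were higher). Tpm1, the tropomyosin that lies along actin in the thin filament, had -0.35 ± 0.11 (SE) with an adjusted p of 0.207 (edgeR), and Myh9, a nonmuscle myosin, had 0.13 ± 0.17. Of 8 tested genes of actin-related proteins, none passed in edgeR (at unadjusted p under 0.05, 1 was lower and 0 were higher), with a median of -0.14. Actr3, a subunit of the Arp2/3 complex that branches filaments, had -0.38 ± 0.16, and Actr1b, an actin-related protein of dynactin, -0.20 ± 0.18. Among 27 tested genes for actin-binding and filament proteins, 1 rose, none fell and 26 did not pass, with a median of 0.02. The member that rose was Capza1, a subunit of the protein that caps filament ends, at 2.55 ± 0.54 on 172 reads over the 6 libraries, with an adjusted p of 0.0253 (edgeR). The abundant members Gsn (0.25 ± 0.12), a filament-severing protein, and Actn2 (0.09 ± 0.12), the Z-disc actin crosslinker, did not pass. Over all genes tested 0.581% were called in either direction.

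Markers of other cells that make these actins are given beside them. Of 15 skeletal muscle fibre markers 4 had enough reads to be tested, and none passed in edgeR (1 was lower at unadjusted p under 0.05). The list summed to 29.6 to 41.6 CPM in PG and 40.4 to 68.9 CPM in GC, and the groups overlapped. It had no marker at 0 in all libraries. All 4 tested members had negative log2 fold changes, with a median of -0.52. They were Myl1 (-0.73 ± 0.32, SE), Tnnt1 (-0.58 ± 0.45), Atp2a1 (-0.46 ± 0.68) and Mybpc2 (-0.18 ± 0.34). The fast myosin genes Myh4, Myh1 and Myh2 were not tested, with 7, 11 and 22 reads over the 6 libraries. Markers too low to be tested lay in both directions. Pvalb had 0.85 ± 0.95 CPM in PG and 0.16 ± 0.28 in GC, and Myh2 had 0.37 ± 0.33 in PG and 2.85 ± 3.37 in GC (SD). Among the 12 smooth muscle and pericyte markers the summed level was 1455 to 1497 CPM in PG and 1282 to 1419 CPM in GC, higher in PG. Of 9 tested none passed in edgeR (1 was higher at unadjusted p under 0.05), and 2 had negative log2 fold changes. Most of that sum was Des, also a cardiomyocyte gene, Rgs5 and Abcc9. The contractile smooth muscle genes Myh11 (0.20 ± 0.32), Tagln (-0.15 ± 0.24) and Smtn (-0.23 ± 0.17) did not pass.

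Atrial markers summed to 1257 to 1564 CPM in PG and 1348 to 1958 CPM in GC. Of the 6 markers, all tested, 1 rose, none fell and 5 did not pass in edgeR (at unadjusted p under 0.05, 2 were lower), and the median log2 fold change was -0.19. Nppa, the natriuretic peptide gene that made up most of the sum, had -0.14 ± 0.14 (SE), Bmp10 -0.23 ± 0.15 and Sln 0.12 ± 0.26. The atrial light-chain genes Myl4 (-0.58 ± 0.15, adjusted p 0.0693, edgeR) and Myl7 (-0.66 ± 0.17, adjusted p 0.0852) missed the threshold, and the member that rose was Dkk3 (0.87 ± 0.16, adjusted p 0.0102, edgeR). Fibroblast markers stood at 553 to 560 CPM in PG and 590 to 649 in GC, and endothelial markers at 539 to 598 in PG and 600 to 666 in GC. Both sums were without overlap, PG lower, as were 8.25% of all genes tested. The median log2 fold change was -0.45 for the fibroblast list (5 of 7 negative) and -0.02 for the endothelial list (5 of 8 negative). Fabp4, the most abundant endothelial marker, stood at 164 ± 22.3 CPM in PG and 228 ± 5.42 in GC (SD, n = 3 each). The next most abundant differed little, with Kdr at 117 ± 10.4 CPM in PG and 118 ± 15.7 in GC. Cdh5 stood at 116 ± 8.77 CPM in PG and 111 ± 9.15 in GC. Leukocyte markers (155 to 218 CPM in PG, 199 to 210 in GC) and erythroid markers (959 to 1562 in PG, 1142 to 1839 in GC) overlapped. No member of these 4 lists passed in edgeR. At unadjusted p under 0.05, 2 fibroblast, 1 endothelial, 0 leukocyte and 3 erythroid markers were lower and none was higher. No marker was at 0 in all libraries. Their part in the actin results was not tested.

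The genes most like each fallen striated actin were found by the Pearson correlation of log2 CPM over the 6 libraries, among 6165 other genes with a mean of at least 10 CPM. The libraries share the group difference and the scaling, and the highest of many values were taken, so these are descriptions. For Acta1 they were Trmt112 (0.990), the fatty-acid-binding protein gene Fabp4 (0.987), Sdr39u1 (0.986), Rraga (0.985) and Prr13 (0.985), none of which passed the test of PG against GC. For Actc1 they were Adprhl1 (0.994), Bcl2l13 (0.993), the filamin gene Flnc (0.992), Anxa6 (0.989) and the collagen gene Col3a1 (0.987), none of which passed either. By this measure Acta2 ranked 9 for Acta1 (0.982), while Actc1 ranked 121 for it (0.902). Actg1 ranked 31 for Actc1 (0.958) and Actb ranked 560 for it (0.750). By Spearman correlation the order for Acta1 turned, with 0.886 for Acta2 and 0.943 for Actc1.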

How the data were processed

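The authors deposited 1 table for the 6 libraries, with counts per gene, and per the labels' protocols fragments of 25 to 35 nt were cut from RNase I digests of heart extracts cleared of nuclei and mitochondria. Per the file headers it gives read counts for exons, introns and junctions, unique and total, and RPKM, which the authors scaled to exon length and mapped reads. Per the file headers the authors' EDGE test gives p-values and a signed score of fold change. GRCm38 and mm10 are the builds named in the submitters' processing notes. The aligner, the counter and its strand setting: not given in the sources used here. Of the per-library columns, 83 stayed out of every step.

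The test on total exon reads used edgeR 4.0.16 (R 4.3.3) on all genes that passed filterByExpr at a minimum count of 10, with TMM, glmQLFit and glmQLFTest, and group as the only term. Genes with an adjusted p under 0.05 were called. Log2 fold changes are PG over GC, and their standard errors come from the F statistic. Settings tried were other read classes, scalings and filters, DESeq2 1.42.0, limma-voom (limma 3.58.1), the replicate block and each library left out; shared reads and junction reads were added after seeing the data. No pair of replicates agreed within sampling noise. Coordinates were shifted to count from 1, and promoter sequences are RefSeq's (GRCm38.p6).

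The members, lists and tests were chosen with earlier results of these data known. The genes named are the 5 actins and Actg2, list members that passed, and the 5 genes most like Acta1 and Actc1. The 2 most abundant of each list are also named, except for the lists of cell type markers. Srf and the marker genes given by name, other than Dkk3, fall outside that rule and were chosen once their values had been seen. Likeness used log2 of CPM plus 0.5. Mkl1, Mkl2 and Nat6 were matched by older symbols, and Actmap and Itgam, which matched no single row, were not analysed here. The biological coefficient of variation was 19.5%.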

Additional observations from a re-analysis of the deposited data

How the results depend on the processing

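All 5 actins kept a negative log2 fold change under every setting run. Acta1 passed in all 18 alternatives, from -1.64 to -1.05, and Actb and Actg1 in none. With 1 library left out, Actb ran from -0.32 to -0.08 and Actg1 from -0.52 to -0.25. Actc1 missed the threshold on total gene reads (-0.74, edgeR adjusted p 0.143) and on reads that fit several places (-0.77, 0.151), and ran from -0.90 to -0.61 with 1 library left out. Acta2 missed it on total gene reads (-0.62, 0.0768), with library size alone (-0.59, 0.0945) and on junction reads (-0.40, 0.705), and ran from -0.77 to -0.58 with 1 library left out. The causes were not tested. The number of genes called was 53, and it was 90 on unique reads, 88 on expression values, 181 with no filter on low counts, 127 in DESeq2, 80 in limma-voom, 5 on reads that fit several places, where 1910 genes were tested, 13 on junction reads, where 2839 were, and 19 to 102 with 1 library left out (PG replicate 1 left out, 25 genes; PG replicate 2, 26 genes; GC replicate 2, 19 genes; GC replicate 3, 102 genes). With library size alone 41 were called, 25 higher and 16 lower, against 23 higher and 30 lower, and the median log2 fold change of all genes moved to 0.06.

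No pairing by replicate number was seen, as deviations of same-numbered libraries correlated at -0.05 to -0.01. Counting noise enters these deviations, so a weak pairing could be missed. With the replicate block 22 genes were called, Acta1 (-1.40) and Actc1 (-0.78) among them, and Acta2 was not (-0.65, edgeR adjusted p 0.134).

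As a share of the 5 actins' reads, PG minus GC in percentage points, Actc1 had -1.20 on all reads, -2.75 on unique reads, -2.95 on expression values and -0.434 per kilobase, and -0.742 without PG replicate 1. Actb had 1.76, 3.75, 3.94 and 1.11 in the same order. Actg1 had 0.205, 0.0396, -0.0301 and 0.132, so its sign turned on expression values. Acta2 had 0.12 on all reads, -0.44 on unique reads and -0.399 on expression values, and 0.0111 to 0.219 with 1 library left out (0.0111 for PG replicate 1, 0.219 for PG replicate 2, 0.0621 for GC replicate 2, 0.195 for GC replicate 3). The Acta1 share of Acta1 plus Actc1 reads differed by -1.07 to -0.595 with 1 library left out. Unique reads over the 6 libraries number from 118 for Actg1 to 22330 for Actc1, so depth limits Actg1 most.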

Other observations

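Actc1 was the only one of the 5 actins with more than a few intron reads. It had 45, 64 and 65 intron reads in PG replicates 1, 2 and 3, against 129, 128 and 118 in GC, while the other actins had 1 to 7 intron reads each over all libraries. Actc1 also had by far the most exon reads, 144473 over the 6 libraries beside its 549 intron reads. The others had 1289 (Actg1) to 7120 (Actb) exon reads. A predicted row, A530058N18Rik_1, overlaps Actc1 and held 10 exon reads in PG and 31 in GC. Acta1 lies within the long predicted row Gm20388, which held 238 exon reads in PG and 189 in GC. Strand was not stated for the counting, so reads of overlapping rows cannot be told apart by it. Of the unique reads of Actg1, 2, 11 and 5 crossed a junction in PG replicates 1, 2 and 3, against 8, 14 and 11 in GC.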
